A study of Arabidopsis thaliana with 4 samples.

Results

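The fermentation enzymes examined here were lactate dehydrogenase LDH1 (AT4G17260), the pyruvate decarboxylases PDC1 (AT4G33070) and PDC2 (AT5G54960), and alcohol dehydrogenase ADH1 (AT1G77120), in leaves of Arabidopsis thaliana supplied with sugar. They were 4 of the 22746 probe sets of the ATH1 array other than controls. LDH1 and PDC2 were found through the platform annotation, which gives 1 probe set to each of these loci (245324_at and 248138_at) and lists LDH1 by its locus alone. ADH1 and PDC1 were taken by identifier, as probe sets 264953_at and 253416_at, and as that annotation does not list these, their gene names rest on the rule that chose them. Full-grown source leaves of wild-type Col-0 plants not yet in flower, grown in days of 14 h, were detached at the end of the day, and their petioles stood in the dark for 13 h in 2 mM MES buffer. The buffer held 100 mM sorbitol, a sugar alcohol given to the control leaves, or 100 mM sucrose, and each group had 2 arrays. All leaves were detached and darkened, and no array showed leaves before the incubation. The comparison therefore asks how transcript levels differed between sucrose-fed and sorbitol-fed leaves. Nothing in the labels ties a replicate to a separate plant or harvest, and p-values here measure spread between arrays that could be purely technical.

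Fermentation lets glycolysis run on when pyruvate is not oxidised in mitochondria, because its last step turns NADH back into NAD+. In the ethanol branch pyruvate decarboxylase splits pyruvate into acetaldehyde and carbon dioxide, and alcohol dehydrogenase reduces acetaldehyde to ethanol. In the lactate branch lactate dehydrogenase reduces pyruvate to lactate in a single step. Arabidopsis ADH1 and PDC1 are widely used as markers of low oxygen, and ADH1 is also known to respond to cold, drought and abscisic acid.

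In these leaves LDH1, PDC2 and PDC1 had higher intensities on each sucrose array than on either sorbitol array, while for ADH1 this was so of sucrose 2 alone. Mean levels in sucrose, from means of log2 values, were 6.08-fold those in sorbitol for LDH1, 2.57-fold for PDC2 and 1.78-fold for ADH1. For PDC1 the fold was 4.14 with its dim sorbitol values raised to the level of control probe sets. Of the 3 members above the filter on dim probe sets 0 passed at an adjusted p under 0.05 (limma with Benjamini-Hochberg adjustment over 13648 probe sets). In the same fit 0.366% of the tested probe sets were called higher and 0.923% lower. At an unadjusted p under 0.05 in limma, 2 of the 3 were higher in sucrose, against 9.85% of all tested probe sets. The members were chosen with earlier results of these data known, so these shares are no test of the members as a set. Groups that do not overlap, as for 3 of the 4 members, were also common, with both sucrose values above both sorbitol values in 26.1% of the tested probe sets and 21.1% of all 22746. A bulk leaf sample cannot tell apart a change in the share of cells that hold a transcript and a change in its amount per cell.

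**Figure D1:**
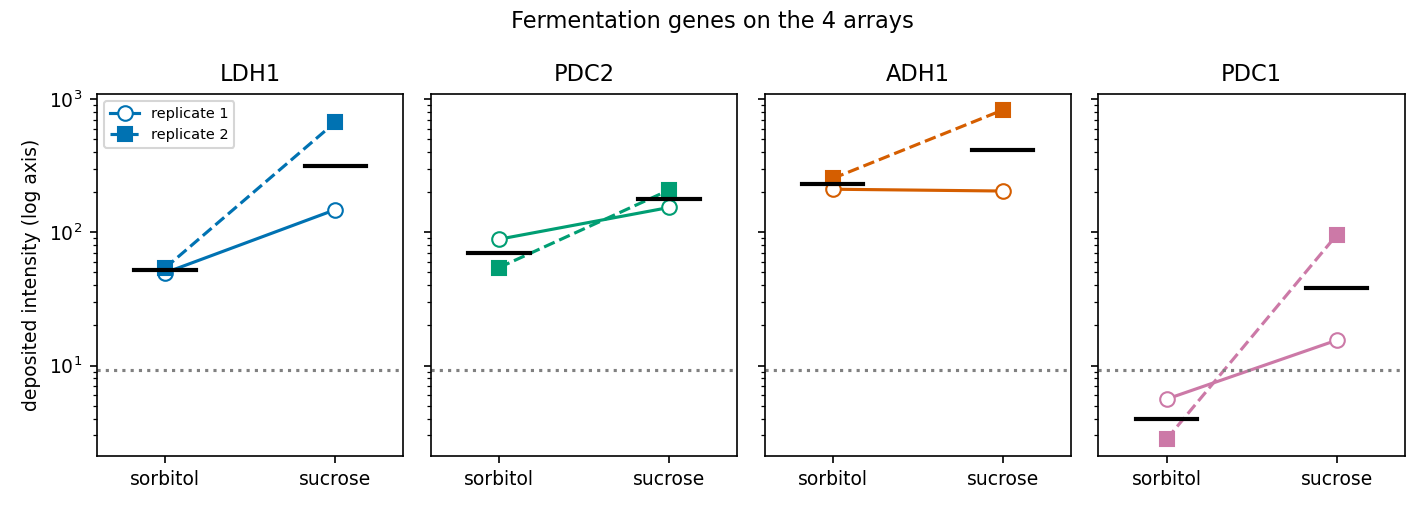
Deposited intensity (log axis) of each fermentation gene in sorbitol-fed and sucrose-fed leaves, with lines joining arrays of the same replicate number (open circles replicate 1, filled squares replicate 2) and black bars at the mean of the log2 values. The dotted line marks 9.3, the top value among 27 Bacillus control probe sets, and the filled square in sucrose is the highest point in all 4 panels.

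LDH1 makes lactate, the product of the shorter branch. In sorbitol its intensity was 49.7 on array 1 and 54.0 on array 2, and in sucrose it was 148.0 on array 1 and 671.3 on array 2. The sorbitol arrays lay close together, and both sucrose arrays lay above them but differed 4.54-fold from each other. On the log2 scale the level was 5.70 ± 0.08 (SD, n = 2) in sorbitol and 8.30 ± 1.54 in sucrose, a change of 2.61 ± 0.68 SE with a 95% interval of 0.96 to 4.25 (limma adjusted p = 0.113). The change exceeded that of 99.1% of the tested probe sets. Within the replicate numbers it was 2.98-fold in pair 1 (sucrose 1 over sorbitol 1) and 12.4-fold in pair 2. Without sucrose 1 the log2 change was 3.70, and without sucrose 2 it was 1.51.

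PDC2 encodes a pyruvate decarboxylase, the enzyme that commits pyruvate to the ethanol branch. Its intensity on arrays 1 and 2 was 88.8 and 54.4 in sorbitol, against 153.8 and 207.8 in sucrose. The groups did not overlap, and the 2 sucrose arrays differed by less from each other (1.35-fold) than in LDH1. The log2 level was 6.12 ± 0.50 (SD, n = 2) in sorbitol and 7.48 ± 0.31 in sucrose, a change of 1.36 ± 0.37 SE with an interval of 0.46 to 2.26 (limma adjusted p = 0.125). It was 1.73-fold in pair 1 and 3.82-fold in pair 2. The PDC2 change lay between 1.01 and 1.72 in the fits that left out 1 array, which cannot reverse it where groups do not overlap.

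PDC1 encodes another pyruvate decarboxylase and was the dimmest member. In sorbitol its intensity was 5.6 on array 1 and 2.8 on array 2, both below 9.3, the highest value that 27 control probe sets for Bacillus transcripts reached on any array. In sucrose it was 15.5 on array 1 and 95.6 on array 2, so both sucrose arrays lay above that level and sucrose 2 stood 6.17-fold above sucrose 1. Its mean log2 level lay below the 40th percentile of all probe sets, an intensity of 18.6, and it was therefore left out of the test. With intensities below 9.3 raised to that level, the mean fold was 4.14, with 1.67 in pair 1 and 10.3 in pair 2. These folds are minimum values only as regards the dim sorbitol values, and take no account of the spread between the sucrose arrays. The deposited values themselves gave a log2 change of 3.28, from 1.99 ± 0.71 (SD, n = 2) to 5.27 ± 1.86, a size that is uncertain because the sorbitol values are so dim. In a limma fit with no filter on dim probe sets PDC1 did not pass (adjusted p = 0.246), and 0.0132% of the 22746 probe sets passed there.

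ADH1 carries out the last step to ethanol. Sorbitol arrays 1 and 2 gave intensities of 210.9 and 254.0, and sucrose arrays 1 and 2 gave 204.4 and 830.1. Sucrose 1 was the lowest of the 4 arrays and sucrose 2 the highest, so the groups overlapped. The log2 change was 0.83 ± 0.64 SE with an interval of -0.72 to 2.38 (limma adjusted p = 0.518), from 7.85 ± 0.19 (SD, n = 2) to 8.69 ± 1.43. In pair 1 the change was -0.05 and in pair 2 it was 1.71. The value rests on 1 array, since it was -0.18 without sucrose 2 and 1.84 without sucrose 1.

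**Figure D2:**
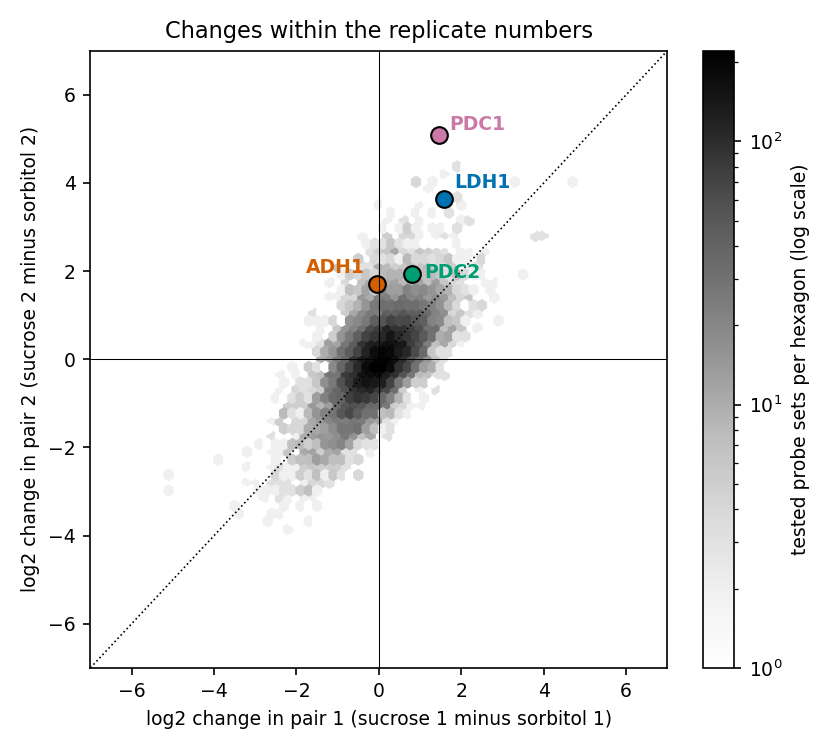
Log2 change in pair 1 (horizontal axis) against pair 2 (vertical axis) for the 13648 tested probe sets, as grey hexagons shaded by their number on a log scale, and for the 4 fermentation genes as coloured points. All 4 points lie above the dotted line of equal change, with ADH1 at -0.05 in pair 1 and 1.71 in pair 2.

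All 4 members had their highest value on sucrose 2, which was the highest of the 4 arrays for 24.1% of the tested probe sets and 27.9% of all 22746. Their pair 2 changes were all above their pair 1 changes, as were those of 47.5% of the tested probe sets and 52.7% of all 22746. Sucrose 2 exceeded sucrose 1 by 2.18 log2 units for LDH1, 2.02 for ADH1 and 2.62 for PDC1, but by 0.43 for PDC2. The same difference between replicate numbers in sorbitol was 0.12 for LDH1, 0.27 for ADH1 and -0.71 for PDC2, and PDC1 was also lower on sorbitol 2, at 2.8 against 5.6. Over all tested probe sets the replicate 2 minus replicate 1 difference had a median of -0.08 (SD 0.68 over probe sets) in sorbitol and -0.13 (SD 0.80) in sucrose. Large gaps between the sucrose arrays were thus found for 3 members, with no matching gap of that direction and size between the sorbitol arrays.

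Control probe sets also set arrays apart. The 25S ribosomal RNA control was 2163 and 1255 on the replicate 1 arrays against 14.4 and 56.6 on the replicate 2 arrays. For the older GAPDH control, the excess of the 3 prime over the 5 prime probe set, a measure of RNA integrity, was 0.20 log2 units on sucrose 2 and between 1.43 and 1.85 on the other arrays. The ubiquitin control had 0.50 on sucrose 2 against 1.24 to 1.79. The actin control did not set sucrose 2 apart, with 3.35 against 3.26 to 4.12, and the newer GAPDH control had -0.007 against 0.044 to 0.33. The part of these differences in the members' values was not tested. Leaf markers had intensities of 482.1 to 5469 for the 3 of 12 that had a probe set named for them alone (PRK, RCA and LHCB4.1), with sums of 12539 and 10757 in sorbitol and 5296 and 3502 in sucrose. In limma 1 of these 3 passed, PRK, which fell by 2.28 on the log2 scale (adjusted p = 0.0487), and the others had changes of -1.61 (RCA) and -1.01 (LHCB4.1). Of 11 root markers 4 had such a probe set, none was bright enough to be tested, and their sums were 77.0 and 53.7 in sorbitol and 43.0 and 36.4 in sucrose. The part of the lower leaf marker level in the members' values was not tested.

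The members were next compared with each other through their log2 differences within each array, in 3 comparisons with an exact two-sided permutation test. With 2 arrays against 2 that test cannot give a p below 0.333, so it can describe but not call a difference. The change of PDC1 exceeded that of PDC2 by 1.92 (exact permutation p = 0.333, 0.5 after Benjamini-Hochberg adjustment over the 3 comparisons), with 0.68 in pair 1 and 3.16 in pair 2. With dim values raised it exceeded it by 0.69 (exact permutation p = 1), without sucrose 2 by 0.82 and without sucrose 1 by 3.01. The change of LDH1, of the lactate branch, exceeded that of PDC2 by 1.24 (exact permutation p = 0.667, adjusted 0.667), with 0.78 in pair 1 and 1.70 in pair 2. It exceeded it by 0.37 without sucrose 2 and by 2.116 without sucrose 1. The change of ADH1 minus that of PDC1, the successive steps to ethanol, was -2.45 (exact permutation p = 0.333, adjusted 0.5), with -1.51 in pair 1 and -3.39 in pair 2, and -1.22 with dim values raised. ADH1 thus had the smaller change in both pairs.

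Measured genes listed as neighbours of fermentation were few on this annotation. Of 14 further loci on a list of fermentation and its neighbours, 3 had a probe set named for them alone, and 0 of 3 passed in limma over all tested probe sets, where 1.29% passed in either direction. ACS, an acetyl-CoA synthetase that turns acetate into acetyl-CoA, had intensities of 217.9 and 209.7 in sorbitol and 384.6 and 327.3 in sucrose, a log2 change of 0.73 (adjusted p = 0.233). Its sucrose arrays lay above its sorbitol arrays, with sucrose 1 the higher of them. ALDH2C4, an aldehyde dehydrogenase, had 303.0 and 264.0 in sorbitol and 358.6 and 481.1 in sucrose, a change of 0.55 (adjusted p = 0.383). AT5G06580 had 119.2 and 116.1 in sorbitol and 97.9 and 84.9 in sucrose, a change of -0.37 (adjusted p = 0.539).

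The pyruvate dehydrogenase complex competes with fermentation for pyruvate by turning it into acetyl-CoA. Of 15 loci entered on its list 6 were measured and tested, 5 of them higher in sucrose and 1 lower, and 0 passed in either direction in limma, with a median log2 change of 0.55 beside 0.02 over all tested probe sets. AT1G54220 had intensities of 73.7 and 70.2 in sorbitol and 174.0 and 148.9 in sucrose, a change of 1.16 (adjusted p = 0.11). AT3G13930 had a change of 1.01, MAB1 of 0.74, LTA3, a dihydrolipoamide acetyltransferase, of 0.36 and AT2G34590 of 0.29. The median was 0.68 in pair 1 and 0.73 in pair 2. Here sucrose 2 was the highest array for 0 of 6 genes, unlike the fermentation genes, and for 24.1% of the tested probe sets. That difference from the fermentation genes was not tested.

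Glycolysis delivers the pyruvate that both branches start from. Of 45 loci on the glycolysis list 14 had a probe set named for them alone and 11 were tested, of which 10 were higher in sucrose and 1 lower, with a median change of 0.83 (0.85 in pair 1, 0.70 in pair 2). The split was 11 and 0 with quantile normalisation, where GAPC2 turned, and 9 and 2 with median centring, where AT1G56190 turned. In limma 0 of the 11 passed in either direction. AT1G12000 had 60.7 and 55.6 in sorbitol and 171.3 and 144.2 in sucrose, a log2 change of 1.44 (adjusted p = 0.0779), and its groups did not overlap. The further genes of smallest p were AT5G56350 with a change of 1.62, AT5G63680 with 1.24, AT1G20950 with 1.09 and AT5G08570 with 0.83. AT5G56350 had 208.3 and 346.4 in sorbitol and 539.0 and 1269 in sucrose. Sucrose 2 was thus its highest array, as for 3 of the 11 and for 24.1% of the tested probe sets.

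**Figure D3:**
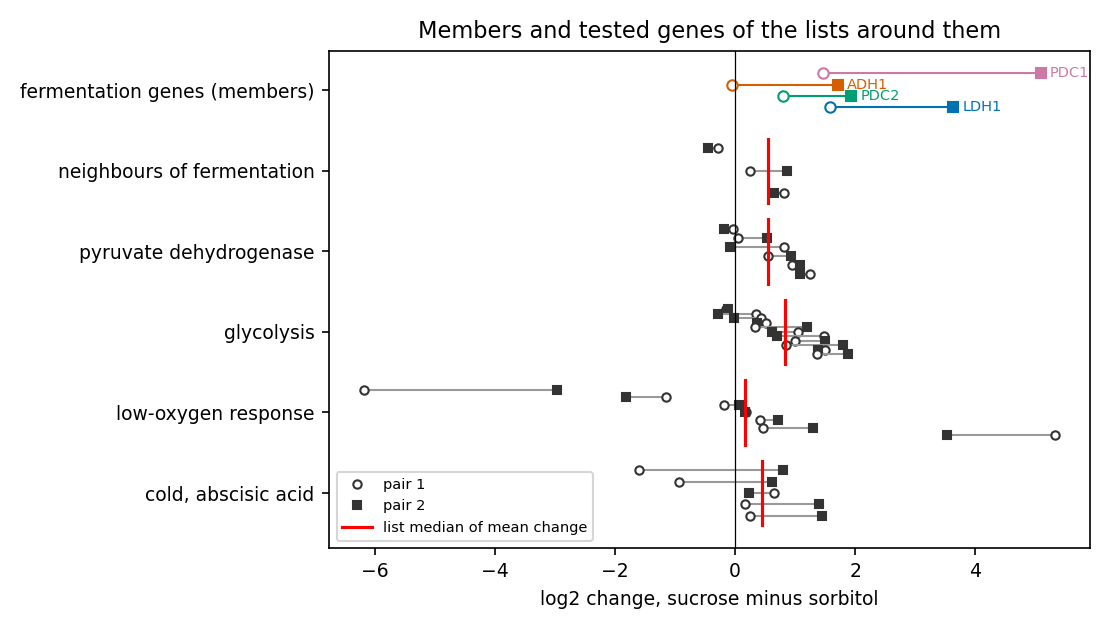
Log2 change in pair 1 (open circles) and pair 2 (filled squares) of the 4 fermentation genes (coloured) and of the tested genes of 5 lists (grey, 1 line a gene), with a red bar at the list's median mean change. The glycolysis and pyruvate dehydrogenase medians lie at 0.83 and 0.55, and the low-oxygen genes spread to both sides of 0 around a median of 0.17.

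Genes known to respond to low oxygen did not share 1 direction. Of 39 loci on that list, the members left out, 19 had a probe set named for them alone and 7 passed the filter on dim probe sets, 4 of them higher in sucrose and 3 lower, with a median log2 change of 0.17. In limma 0 passed higher and 1 lower. AT4G27450, the gene that fell, had 565.9 and 184.5 in sorbitol and 7.8 and 23.7 in sucrose (log2 change -4.57, adjusted p = 0.0487). That call was lost with no filter (adjusted p = 0.12), quantile normalisation (0.0567), no trend (0.0557) and without sorbitol 1 (0.23) or sorbitol 2 (0.117), all in limma, and the change was between -5.38 and -3.76 throughout. CML38, a calmodulin-like protein, lay in the opposite direction with 1.0 and 23.7 in sorbitol and 40.2 and 272.9 in sucrose, a change of 4.43 (adjusted p = 0.184) whose size rests on the dim sorbitol 1 value. AT1G74940 had a change of -1.48 (adjusted p = 0.143), AT3G03270 of 0.88 and AT5G42200 of 0.56. None of the 15 loci of the list of oxygen sensing and group VII ERF factors, which switch on low-oxygen genes, had a probe set named for it alone, and these were not analysed here.

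Because ADH1 is also known to respond to cold and abscisic acid, 19 loci of such a list were set beside it, of which 5 were measured and tested. In limma 0 of 5 passed in either direction, and the median change was 0.44, with 0.16 in pair 1 and 0.80 in pair 2. All 5 were higher on replicate 2 than on replicate 1 in both groups, a share that was not counted over all probe sets. Sucrose 2 was the highest array for all 5, and for 24.1% of the tested probe sets. LTI30, a dehydrin, gave 170.1 and 818.2 in sorbitol and 202.1 and 2235 in sucrose (arrays 1 and 2). LEA4-5, a late embryogenesis abundant protein, had 14.4 and 116.2 in sorbitol and 16.1 and 307.6 in sucrose. In ADH1, sucrose 2 was likewise the highest array, and its sorbitol arrays differed 1.20-fold. COR15A, COR15B and COR47 had changes of 0.44, -0.40 and -0.16. The part of this replicate difference in the ADH1 values was not tested.

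The 7353 probe sets with a single named gene that passed the filter on dim probe sets, members left out, were ranked by likeness to each member. The measure was how near their 4 log2 values, centred on their own mean, lay to those of the member (Euclidean distance over 4 arrays). Nearest to LDH1 were AT1G57630 at a distance of 0.20, AT3G13950 at 0.23, AT5G38900 at 0.33 and AT3G25610 at 0.33. AT1G57630 had 66.6 and 77.1 in sorbitol and 207.6 and 803.2 in sucrose, the same order of arrays as LDH1. PDC2 lay nearest to AT3G57280 at 0.17, AT2G16660 at 0.22, AT5G47050 at 0.26 and AT5G14520 (PES) at 0.27. For ADH1 the nearest were AT1G61360 at 0.11, CCOAMT at 0.17, AT1G23710 at 0.18 and AT5G61560 at 0.22. AT1G61360 had 58.0 and 70.2 in sorbitol and 59.3 and 215.6 in sucrose, and was thus high on sucrose 2 alone. PDC1 had no neighbour as close among these, with AT4G01870 at 0.64, AT2G47890 at 0.65, UGT73B5 at 0.69 and AT3G16330 at 0.82. As PDC1 itself lay below the filter, probe sets as dim as it were not among the candidates. Its profile also rests on sorbitol intensities of 5.6 and 2.8, both below 9.3. Distances were not scaled for the size of a profile's changes. With 4 arrays such likeness describes these arrays and carries no test.

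**Figure D4:**
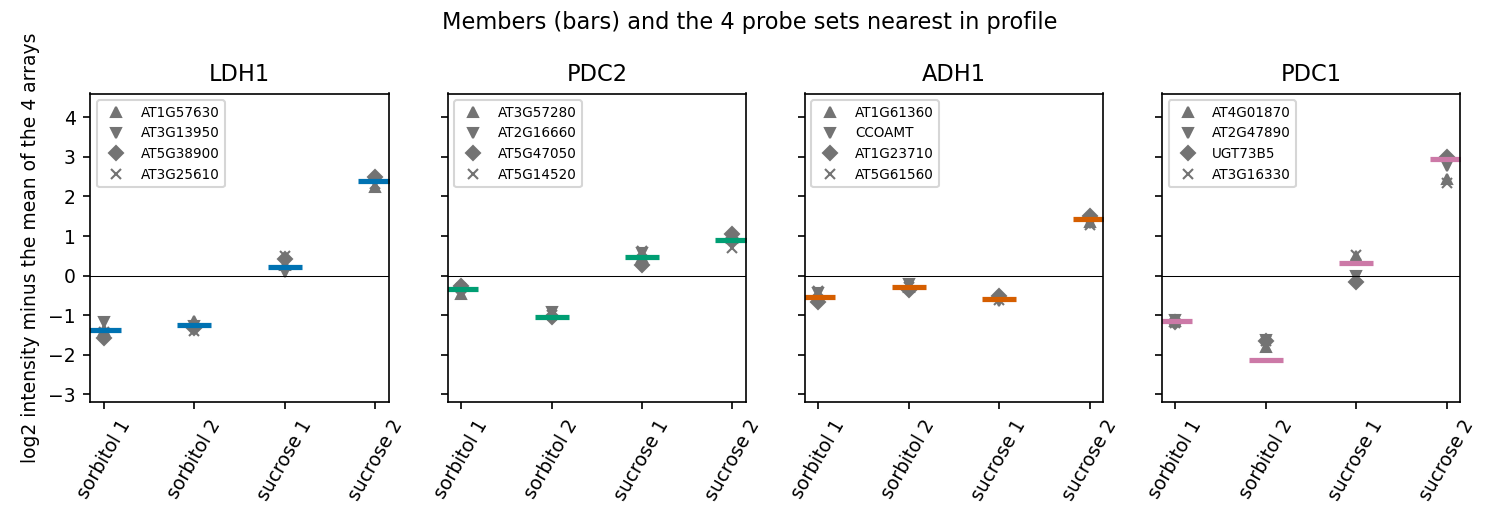
Log2 intensity minus the mean of the 4 arrays for each fermentation gene (coloured bars) and the 4 named and tested probe sets nearest to it in profile (grey symbols), by array. The symbols sit close to the bars for LDH1, PDC2 and ADH1, at distances of at most 0.33, and less close for PDC1, at 0.64 to 0.82.

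**Figure D5:**
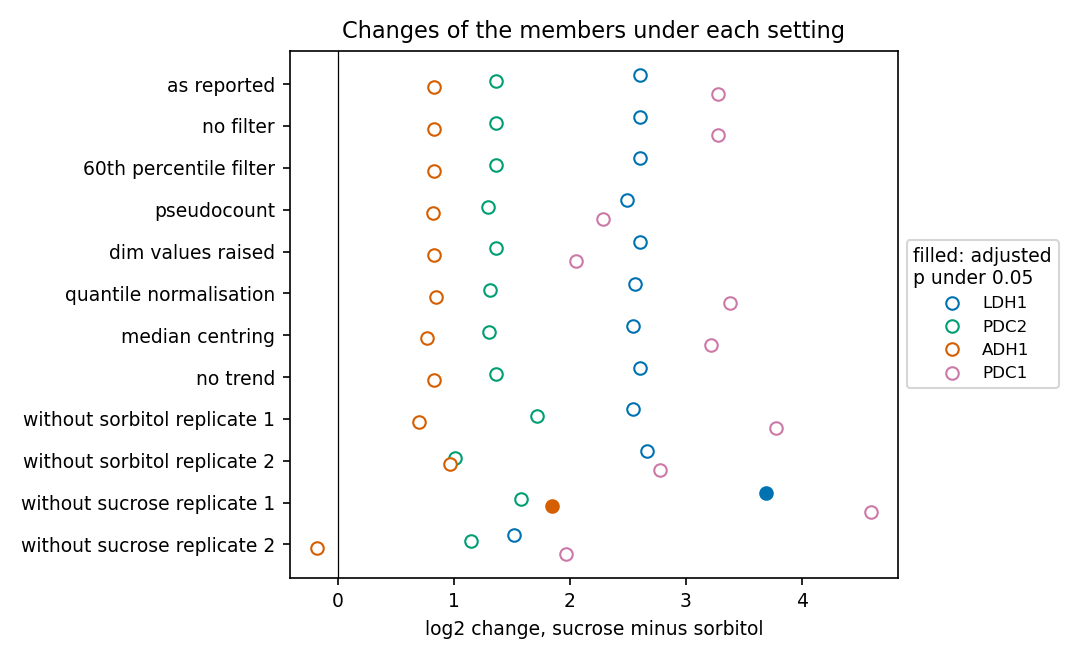
Log2 change of each fermentation gene (horizontal axis) by processing setting (rows), with the fits that had a block for the replicate number not shown. Filled points mark an adjusted p under 0.05 in limma, and points are open otherwise or where no test was made. LDH1, PDC2 and PDC1 stay to the right of 0 in every row shown, and ADH1 is at -0.18 without sucrose replicate 2.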

How the data were processed

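The authors deposited a MAS5 intensity for every probe set on each array, per the submitters' processing notes, and its version, settings and detection calls are not given in the sources used here. The trimmed mean (2% at each end) came to 100.0 on all arrays, so intensities were taken as linear, scaled per array, and not normalised again. The 64 control probe sets were left out of tests. Intensities were floored at 0.1 and converted to log2, and the 13648 probe sets with a mean at or above the 40th percentile were tested with limma 3.58.1 in R 4.3.3 (lmFit, eBayes with a trend) and Benjamini-Hochberg adjustment, threshold 0.05. Changes are sucrose minus sorbitol, and the number of arrays limits the precision. The fit was also run on simulated data with known changes. For the fit without a block for the replicate number, these data held no deviation shared by arrays of the same number. The run therefore cannot show how that fit does where such deviations are shared.

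A single gene was annotated for 13513 probe sets, several for 503 and none listed for 8730. Names follow the TAIR10.1 table, matched for 13436. The array's build was not stated, so no positions are given. A gene with several probe sets was represented by the brightest. Named are the members, the measured neighbours of fermentation, up to 5 tested genes of each other list by smallest p, the 4 nearest profiles of each member and the brightest markers. The members and lists were chosen with earlier results of these data known. Alternatives were 2 other filters, a pseudocount of 5.3, dim values raised to 9.3, quantile normalisation, median centring, no trend, the replicate number as a block and each array left out. A block with no filter was added after seeing the data. Where a left-out array leaves a group with 1, that array is taken to vary as much as those of the other group.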

Additional observations from a re-analysis of the deposited data

How the results depend on the processing

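Across the settings tried, LDH1, PDC2 and PDC1 kept their direction, with log2 changes of 1.51 to 3.70, 1.01 to 1.72 and 1.97 to 4.59. Their groups did not overlap, so no change of filter, trend or block and no left-out array could have reversed that direction. ADH1 ranged from -0.18 to 1.84, both reached by leaving out 1 sucrose array. The fits without an array set the lowest and highest of these values. The 176 probe sets called became 3 with no filter, 265 with the 60th percentile filter, 94 with quantile normalisation and 103 without the trend, and 0 to 948 without 1 array. With quantile normalisation 22 were higher and 72 lower. Whether a replicate number stands for a shared batch is not in the labels. Over probe sets, deviations from the group means of arrays with the same number had a correlation of 0.43, which with 2 pairs does not settle a pairing. A block for the replicate number gave 2336 calls (8.28% of those tested higher, 8.84% lower), LDH1 (2.61, limma adjusted p = 0.00108) and PDC2 (1.36, adjusted p = 0.0159) passed, and ADH1 did not (adjusted p = 0.18). That fit leaves 1 residual degree of freedom. With the block and no filter, added after seeing the data, 0 of the 4 passed (limma adjusted p of 0.0795 for LDH1, 0.126 for PDC2, 0.397 for ADH1 and 0.156 for PDC1). Dim values raised moved PDC1 minus PDC2 to 0.69 and ADH1 minus PDC1 to -1.22, and the pseudocount moved the latter to -1.46. Of the 32 tested genes of the lists other than leaf and root markers 1 passed, and 0 with no filter, quantile normalisation or no trend, 10 with the block and 0 to 3 without 1 array. Signal over background limits PDC1, whose sorbitol values both lay below the control level.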

Other observations

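Of the 12 low-oxygen genes too dim to be tested, 4 had all 4 intensities at or below 9.3. AT4G24110, picked after its values were seen, had 0.8 and 0.7 on sorbitol 1 and 2, 0.5 on sucrose 1 and 44.1 on sucrose 2. The remaining 11 stayed at or below 23.9. HRA1 (AT3G10040), a hypoxia response attenuator also picked after its values were seen, had 2.1 and 0.4 in sorbitol and 4.7 and 3.3 in sucrose, all below the control level.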
